A study of Mus musculus with 2 samples.

Results

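Immediate early genes and heat shock genes were followed across the cell classes of DGAT1 knockout and WT B16-F10 tumours. The set held 39 genes, matched by symbol among the 32285 genes listed, and all 39 were found. It was made up of 8 genes of the AP-1 family, 3 EGR genes, 3 NR4A genes, 12 early response and feedback genes, 4 genes of NF-kB and cytokine feedback and 9 heat shock genes.

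Immediate early genes are switched on within minutes by antigen receptor, cytokine, growth factor or stress signals, without the need for new protein. The AP-1 proteins of the Fos and Jun families pair up to bind DNA, the EGR and NR4A proteins are transcription factors read as signs of recent receptor signalling in T cells, and many of the feedback genes encode phosphatases or RNA-binding proteins that end the response. Heat shock genes encode chaperones, induced through heat shock factor 1 when proteins misfold. Both programmes are also known to be switched on when tissue is digested with warm enzymes.

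B16-F10 is a transplantable mouse melanoma line, and DGAT1 makes triglyceride in its last step. The question was whether loss of DGAT1 in the tumour cells goes with a different immune infiltrate. Subcutaneous tumours were taken at day 14, with 3 tumours behind each group. The data were 1 knockout library and 1 WT library, made from living CD45+ cells by droplet-based single-cell sequencing. Tissue of both groups was digested for 45 minutes, warm (37 °C) and with agitation, in collagenase D (2 mg/ml) and DNase I (30 µg/ml), then passed through a 70 µm filter. The labels name the cell type as melanoma, although CD45 marks blood-derived cells of the host. No map ties cells to the 3 tumours, so each group was 1 sample. No test or p-value is therefore given, and differences between libraries have no replicate check. The same digestion was used for both groups according to the labels, and its part in any difference below was not tested.

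After filtering, 10921 knockout and 9021 WT cells were kept, with medians of 10825 and 14235 unique transcripts (UMIs) per cell. A UMI of Ptprc, which encodes CD45, was found in 95.6% and 90.3% of them. The kept cells of both libraries shared 24 barcodes. Cells were put into classes by gates on marker genes whose thresholds were set after seeing the data, and 14 classes had at least 50 cells in each library, together 7844 and 7038 cells. Levels are counts per 1000000 UMIs of the class (CPM), and each difference is the log2 ratio of knockout over WT. Brackets hold exact 95% intervals, which cover counting error only and not the spread between tumours. A gene was measured in a class with at least 50 UMIs over both libraries, and counts are of genes at least 1.5-fold higher or lower. Dgat1 stood at 44.0 CPM in all knockout cells and 37.3 CPM in all WT cells. The edit was in the melanoma cells, which the CD45 sort was meant to leave out, so this value does not check the labels. Among melanoma-like cells, present despite the sort, the level of Dgat1 was 18.1 [15.2, 21.4] and 27.7 [25.8, 29.8] CPM. Free RNA made up an estimated 2.51% and 2.45% of UMIs. Some members overlap a gene on the other strand, among them Jun (Junos), Junb (Prdx2), Dusp1 (Ergic1), Hspa1a (Gm20481), Dnaja1 (Smu1), and Hspe1 with Hspd1. Strand use in the counting is not stated in the labels or headers, and the values of these genes carry that limit. Fewer UMIs of a gene per class can come from fewer positive cells or from less RNA per cell, and these cannot be told apart in the summed counts.

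Promoters are shown for the genes on which the results below turn, so that the pair Hspa1a and Hspa1b can be set beside other chaperone genes, Jun and Egr2. Each sequence holds the 250 bases before the start of the RefSeq transcript (build GRCm38.p6), written 5′ to 3′ on the gene's strand. Capitals mark a match to GAANNTTC, a pair of inverted heat shock units, or to the longer heat shock element of 3 units, on either strand, and in Egr2 a match to the CArG box, the motif of serum response factor. Hspa1a (chr17:34972157-34972406, minus strand) and Hspa1b (chr17:34959239-34959488, minus strand) encode the inducible chaperone HSP70. Hspe1 (chr1:55087898-55088147, plus strand) encodes the mitochondrial co-chaperonin, Hsph1 (chr5:149636337-149636586, minus strand) the chaperone HSP110, Jun (chr4:95052223-95052472, minus strand) the AP-1 subunit c-Jun and Egr2 (chr10:67537619-67537868, plus strand) a zinc finger factor.
Hspa1a: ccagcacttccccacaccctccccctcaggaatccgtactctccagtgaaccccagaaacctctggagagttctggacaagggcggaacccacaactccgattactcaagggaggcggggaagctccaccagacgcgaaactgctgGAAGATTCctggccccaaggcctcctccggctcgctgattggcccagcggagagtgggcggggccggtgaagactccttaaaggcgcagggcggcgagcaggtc
Hspa1b: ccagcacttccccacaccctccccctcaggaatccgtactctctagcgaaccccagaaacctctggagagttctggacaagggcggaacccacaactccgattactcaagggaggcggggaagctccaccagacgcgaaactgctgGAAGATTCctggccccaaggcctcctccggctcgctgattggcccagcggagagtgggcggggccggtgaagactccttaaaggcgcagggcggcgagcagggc
Hspe1: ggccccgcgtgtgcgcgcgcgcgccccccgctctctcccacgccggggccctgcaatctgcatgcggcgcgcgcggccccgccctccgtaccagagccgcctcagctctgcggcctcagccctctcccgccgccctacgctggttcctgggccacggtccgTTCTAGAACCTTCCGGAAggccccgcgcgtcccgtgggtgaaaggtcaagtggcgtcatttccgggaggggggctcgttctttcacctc
Hsph1: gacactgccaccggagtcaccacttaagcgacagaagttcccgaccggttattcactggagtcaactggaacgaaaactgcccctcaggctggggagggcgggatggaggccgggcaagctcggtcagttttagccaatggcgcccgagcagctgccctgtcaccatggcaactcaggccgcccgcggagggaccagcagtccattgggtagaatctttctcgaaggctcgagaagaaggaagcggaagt
Jun: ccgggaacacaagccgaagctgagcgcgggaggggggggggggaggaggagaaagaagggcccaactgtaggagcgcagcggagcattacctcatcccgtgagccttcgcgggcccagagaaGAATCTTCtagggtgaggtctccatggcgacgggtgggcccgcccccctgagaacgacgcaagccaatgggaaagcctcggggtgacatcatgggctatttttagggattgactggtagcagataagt
Egr2: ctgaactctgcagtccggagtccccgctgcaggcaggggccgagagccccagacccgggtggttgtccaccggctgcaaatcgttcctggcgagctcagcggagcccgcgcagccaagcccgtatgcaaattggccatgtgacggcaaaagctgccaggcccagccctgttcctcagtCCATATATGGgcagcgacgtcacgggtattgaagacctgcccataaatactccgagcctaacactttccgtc

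The promoters of Hspa1a and Hspa1b were identical at 247 of 250 bases (98.8%), each with a GAANNTTC match 104 bases before the start. The matches of Hspe1 lay 84 and 89 bases before its start. They fell in a region shared with a promoter of Hspd1, which encodes the chaperonin HSP60 and runs the other way. In Jun a GAANNTTC match lay 128 bases before the start, and no GAANNTTC match was found in the Hsph1 window. The other order of the inverted pair, TTCNNGAA, was not searched for by itself and is not marked by capitals. The Hsph1 sequence holds a match to it (ttctcgaa), so Hsph1 is not shown to lack a heat shock pair. Of 39 members, 32 had a promoter in the RefSeq table. The table held none for Egr1, Egr3, Hspa8, Fosl1, Nfkbiz, Hsp90aa1 and Ier2. On either strand, GAANNTTC was found in 6.69% of 32851 promoters, in 5 of 7 heat shock members (Hspa1a, Hspa1b, Hspe1, Hspd1 and Dnaja1) and in 2 of 25 other members (Fosl2 and Jun). The heat shock element of 3 units was found in 0.466% of promoters and, among members, in Hspe1 and Hspd1. The CArG box was found in 1.47% of promoters and in Egr2, Dusp5 and Zfp36. The site TGACGTCA, bound by CREB and ATF proteins, was found in 1.55% and in Dusp1 and Btg2, and the AP-1 site TGANTCA in 6.75% and in Zfp36l1 and Tnfaip3. The kB site, bound by NF-kB, was found in 3.90% of promoters and in 6 members (Fos, Fosb, Fosl2, Ier3, Nfkbia and Tnfaip3). These shares are per promoter, while a member was counted if any of its promoters matched. Counted per gene in that way, the shares over all genes were 7.73% for GAANNTTC and 0.514% for the element of 3 units. They were 1.62% for the CArG box, 1.77% for TGACGTCA, 7.82% for TGANTCA and 4.455% for the kB site. A match describes letters in this window and is not a bound site.

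Over the 14 classes there were 493 pairs of a member and a class in which the member was measured. In 77 pairs (15.6%) the member was at least 1.5-fold higher in the knockout library, against 8.38% of the pairs of any measured gene and a class. In 63 (12.8%) it was at least 1.5-fold lower, against 5.86%, and in 353 it was within 1.5-fold. The counts differed between classes. The largest were 24 of 38 measured members higher in cDC1-like cells and 15 of 33 lower in non-classical monocyte-like cells. In melanoma-like, monocyte-like and mature dendritic-like cells at most 3 members passed in either direction, close to the share of all genes given with each class below.

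**Figure D1:**
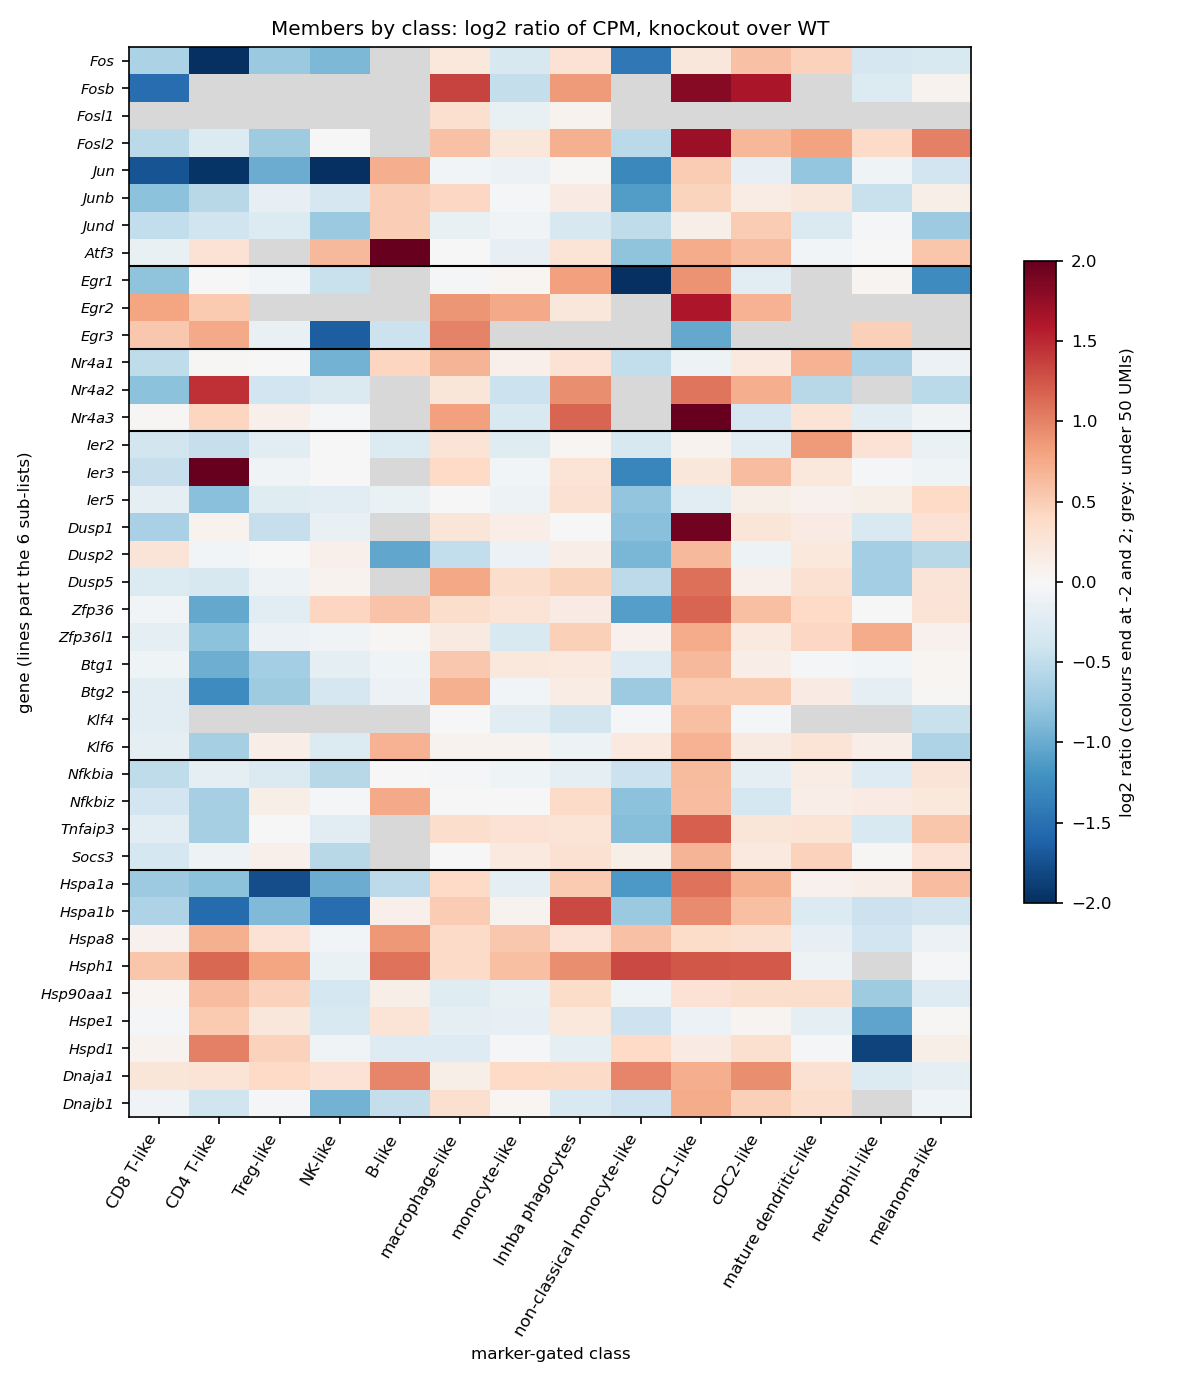
Log2 ratio of CPM, knockout over WT, for each of the 39 members (vertical axis, in 6 sub-lists parted by lines) in each of 14 classes (horizontal axis), with grey where a member had under 50 UMIs. The cDC1-like column is mostly red, with 24 members at least 1.5-fold higher, and the non-classical monocyte-like column mostly blue, with 15 at least 1.5-fold lower.

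CD8 T-like cells were the largest lymphocyte class, with 2415 knockout and 1865 WT cells. In them 9 of 38 measured members were at least 1.5-fold lower in the knockout library and 1 was higher, against 6.78% and 3.38% of the 13235 genes measured. The lower members were Fos, Fosb, Jun, Junb, Egr1, Nr4a2, Dusp1, Hspa1a and Hspa1b, and the higher one was Egr2. Among the 38 the ratio was lowest for Jun. The count of lower members was 6 with doublets kept and 13 with free RNA subtracted.

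Of the AP-1 family, 7 of 7 measured members had log2 ratios below 0, with a median of -0.63 against 0.05 over all genes. Jun stood at 15.6 CPM in knockout and 51.6 CPM in WT cells, a log2 ratio of -1.73 [-1.84, -1.62]. Junb, the Jun family member that restrains c-Jun, stood at 158 and 278 CPM (-0.81). The difference in Jun was therefore larger on the log2 scale than that in Junb. Fosb, a partner of Jun, stood at 1.13 and 3.25 CPM (-1.53 [-1.97, -1.10]). Fos, the prototype of the family, was at 5.23 and 8.08 CPM (-0.63 [-0.85, -0.41]). Fos was near the level that free RNA gives, with an estimated 59.1% of its knockout UMIs and 35.8% of its WT UMIs from that source. With doublets kept, its ratio turned to 0.19, and it was within 1.5-fold under 3 further alternatives (-0.56 to -0.47). The corresponding free RNA shares were 20.2% and 6.27% for Jun and 20.2% and 3.48% for Fosb. Fosl2 (18.3 and 26.7 CPM, -0.55), Jund (295 and 414 CPM, -0.49) and Atf3, a stress-induced member (5.39 and 5.95 CPM, -0.14), were within 1.5-fold. Fosl1 had 15 and 14 UMIs and was not measured.

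The EGR genes did not share a direction. Egr1, the most widely induced of the 3, stood at 11.4 and 19.8 CPM (-0.80 [-0.95, -0.66]). Egr2, which restrains T cell activation and is raised in unresponsive T cells, stood at 6.23 and 3.59 CPM (0.79 [0.53, 1.06]), the higher level being in the knockout library. Egr3, its close relative, stood at 5.10 and 3.51 CPM (0.54 [0.26, 0.82]) and was within 1.5-fold.

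The NR4A genes differed among themselves as well. Nr4a2, one of 3 orphan nuclear receptors tied to T cell exhaustion, stood at 132 and 232 CPM (-0.82 [-0.86, -0.77]). Nr4a1, which encodes Nur77, stood at 16.04 and 22.8 CPM (-0.51 [-0.63, -0.38]). Nr4a3 had near equal levels of 26.9 and 26.5 CPM (0.02 [-0.08, 0.13]). The lower NR4A total of the knockout library, 175 against 281 CPM, lay mostly in Nr4a2.

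Of 12 early response and feedback genes, 1 was at least 1.5-fold lower and the median was -0.20. That gene was Dusp1, a phosphatase that turns off MAP kinases, at 15.0 and 23.6 CPM (-0.65 [-0.78, -0.52]), with 22.6% and 11.2% of its UMIs estimated as free RNA. With doublets kept its ratio was -0.31. Dusp2, another phosphatase of this family, leaned the other way at 94.0 and 78.7 CPM (0.26). The other 10 ranged from -0.46 in Ier3 to -0.06 in Zfp36. Of the 4 NF-kB and cytokine feedback genes 0 passed 1.5-fold, and 4 of 4 were below 0. Nfkbia, which encodes the inhibitor of NF-kB, stood at 189 and 270 CPM (-0.51), and the median was -0.37.

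Heat shock members parted into 2 directions in CD8 T-like cells. Hspa1a stood at 122 and 203 CPM (-0.73 [-0.78, -0.69]) and Hspa1b at 124 and 191 CPM (-0.62 [-0.66, -0.57]). These genes are near copies of each other, so the split of reads between them is uncertain. Their sum was 246 CPM in knockout and 393 CPM in WT cells (-0.68 [-0.71, -0.64]). The remaining 7 summed to 3773 and 3565 CPM (0.08 [0.07, 0.09]). Hsph1 was the highest by ratio, at 160 and 110 CPM (0.55 [0.50, 0.60]). Dnaja1, a co-chaperone that feeds HSP70, stood at 288 and 243 CPM (0.24), and Dnajb1, another co-chaperone, at 64.7 and 67.9 CPM (-0.07). Hspa8, the constitutive form of HSP70, stood at 1545 and 1452 CPM (0.09). The cytosolic chaperone gene Hsp90aa1 stood at 851 and 831 CPM (0.04). Hspd1 (356 and 339 CPM, 0.07) and Hspe1 (507 and 522 CPM, -0.04) were also near 0. The median over the 9 heat shock members was 0.04, so the lower level in the knockout library was seen in the HSP70 pair and not across the chaperones.

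CD8 T-like cells were then parted by markers. The parts were cycling cells (1196 knockout and 890 WT), cells with granzymes C to F (98 and 167), cells with Havcr2, the gene of the exhaustion marker TIM-3 (671 and 538), cells with Tcf7 or Slamf6, markers of progenitor-like T cells (170 and 113), and the rest (280 and 157). Jun was lower in the knockout library in 5 of 5 parts, with log2 ratios from -1.73 to -1.32. Nr4a2 ranged from -1.17 to -0.55 and Hspa1a from -1.86 to -0.63. Hsph1 lay above 0 in each of the 5, from 0.33 to 0.93. In cells with Havcr2, 6 of 9 heat shock members lay below 0. Their median there was -0.15, near the -0.24 of AP-1, EGR and NR4A members. The heat shock median was -0.05 in cells with granzymes C to F and 0.04 in cycling cells. It was 0.28 in cells with Tcf7 or Slamf6 and 0.09 in the rest. In cells with Tcf7 or Slamf6, Hspa1a stood at 25.9 and 93.9 CPM (-1.86), while Junb had a ratio of -0.22. With the parts weighted alike, 9 of the 10 genes stayed past 1.5-fold, Hspa1b being the exception at -0.57.

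**Figure D2:**
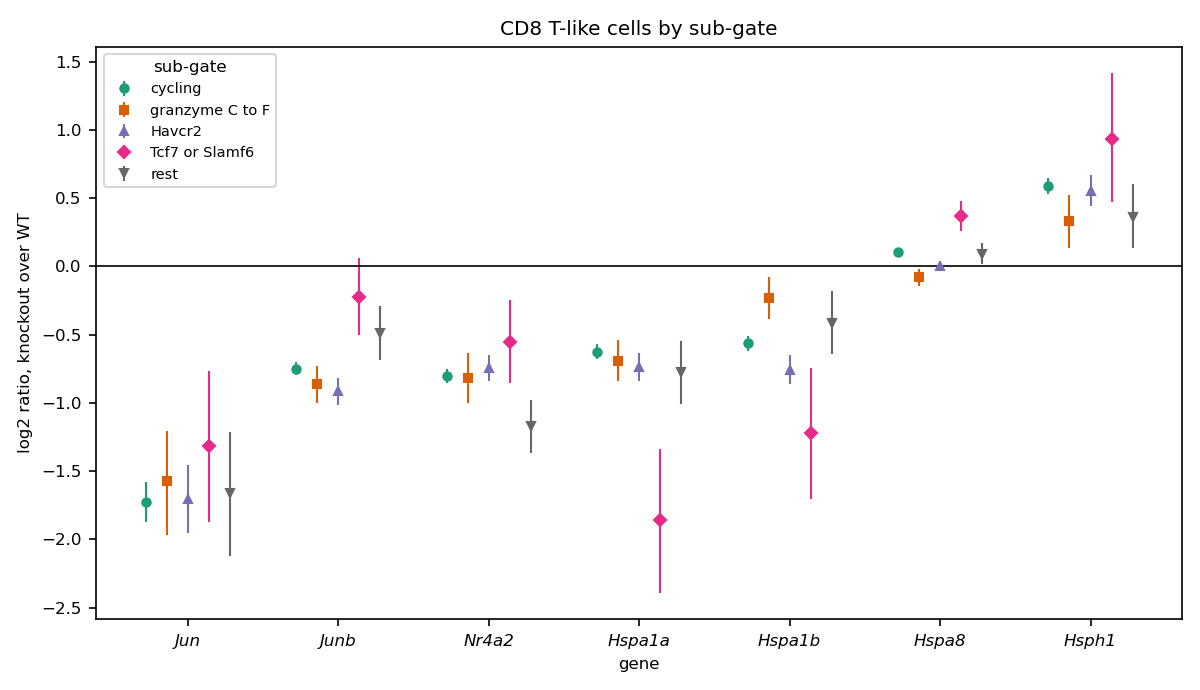
Log2 ratio, knockout over WT, of 7 members (horizontal axis) in 5 parts of the CD8 T-like class (marker shapes), with bars for the 95% counting interval. Jun lies lowest in 4 of 5 parts, between -1.73 and -1.32, Hspa8 near 0 and Hsph1 between 0.33 and 0.93.

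Markers of other cells in the CD8 T-like class also differed between libraries. The 3 C1q genes of macrophages summed to 31.2 and 80.1 CPM and the 5 melanoma markers to 22.1 and 74.6 CPM, both higher in the WT library, and none of these 8 genes was at 0. The 5 neutrophil markers summed to 6.55 and 4.22 CPM. Median mitochondrial shares of UMIs were 2.60% and 2.47%. With free RNA subtracted, the ratio of Jun was -1.96, and with doublets kept it was -1.16. The part of other cells in the remaining differences was not tested.

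Other genes of the pathway were given by their lists. Of 42 other early response genes measured in CD8 T-like cells, 9 were at least 1.5-fold lower and 0 higher. Ppp1r15a, which ends the stress block on translation, stood at 5.75 and 16.6 CPM (-1.53), and Ier5l at 16.5 and 32.3 CPM (-0.97). Of 19 genes of the T cell receptor and NFAT response, 4 were higher and 4 lower. The chemokine gene Xcl1 (357 and 201 CPM, 0.83) and the transcription factor gene Nfatc2 (49.1 and 32.6 CPM, 0.59) were higher in the knockout library. The chemokine gene Ccl3 (393 and 809 CPM, -1.04) and Tnfrsf9, which encodes the activation marker 4-1BB (281 and 517 CPM, -0.88), were lower. Of 24 other chaperone genes, 4 were lower and 0 higher, led by Cryab (0.537 and 2.50 CPM, -2.22) and Serpinh1 (0.609 and 2.11 CPM, -1.79), both at low levels. The 18 genes of upstream factors, which include the kinases and transcription factors above the set, held none past 1.5-fold and had a median of 0.18.

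The other lymphocyte classes were smaller. Jun and the HSP70 pair were lower in the knockout library in NK-like, CD4 T-like and Treg-like cells too, with fewer UMIs behind them. In NK-like cells (453 knockout and 210 WT) 8 of 35 measured members were at least 1.5-fold lower and 1 higher, against 3.36% and 7.59% of all genes. Jun stood at 31.1 and 131 CPM (-2.07 [-2.41, -1.74]), and Hspa1b at 37.6 and 108 CPM (-1.53 [-1.85, -1.21]). In WT NK-like cells 64.9% of Hspa1b UMIs came from 10 cells, and without the 10 highest cells of each library the ratio was -0.92. It was -0.52 when only barcodes over the UMI total used for cell calling were kept. Without the 10 highest cells of each library Jun kept a ratio of -2.25, and with doublets kept it was -1.32. Of the members above 0, Dnaja1 stood at 284 and 232 CPM (0.29) and Atf3 at 27.7 and 17.7 CPM (0.64, or 0.23 with doublets kept). The count of lower members fell to 3 without the 10 highest cells and to 2 over that UMI total. In this class the C1q genes summed to 84.1 and 162 CPM and the melanoma markers to 42.5 and 202 CPM, and their part in the result was not tested.

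CD4 T-like cells (226 knockout and 66 WT) had medians of 12189 and 8015 UMIs. In them 12 of 36 measured members were at least 1.5-fold lower and 7 higher, against 10.9% and 16.1% of all genes. Jun stood at 27.2 and 106 CPM (-1.97 [-2.42, -1.51]), from 110 and 68 UMIs, of which 71.8% and 77.9% lay in 10 cells. Without the 10 highest cells of each library it was -1.82, and with doublets kept it was -1.39. Fos stood at 6.92 and 37.5 CPM (-2.44), but 95.8% of its 24 WT UMIs came from 10 cells, and without the 10 highest cells of each library the ratio turned to 0.91. The count of lower members was then 4. Hspa1a and Hspa1b together stood at 246 and 563 CPM (-1.19 [-1.37, -1.01]), while the other 7 together stood at 3911 and 2515 CPM (0.64 [0.56, 0.71]). The second sum was within 1.5-fold (0.40) under stricter gates. Of the 7, Hspd1 stood at 356 and 177 CPM (1.01 [0.73, 1.30]), with a ratio of 0.27 under stricter gates. The early response gene Ier3 had 128 knockout and 4 WT UMIs (2.34 [0.95, 4.24]). An estimated 19.7% and 84.2% of these came from free RNA, and 75.8% of the knockout UMIs lay in 10 cells.

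In Treg-like cells (124 knockout and 92 WT) 7 of 34 measured members were at least 1.5-fold lower and 1 higher, against 5.82% and 6.64% of all genes. Hspa1a stood at 87.1 and 297 CPM (-1.77 [-1.99, -1.55]) and Hspa1b at 92.8 and 171 CPM (-0.88). Both rested on few WT cells, with 90.5% and 82.2% of the WT UMIs in 10 of 92 cells. Without the 10 highest cells of each library the ratios were -0.38 and -0.0039. Hspa1b turned to 0.29 with cells thinned to at most 5000 UMIs and to 0.31 with each cell weighted alike, where Hspa1a was at -0.27 in both. Hsph1 (122 and 70.3 CPM, 0.80) and Hsp90aa1 (1095 and 791 CPM, 0.47) were on the other side of 0.

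B-like cells (61 knockout and 148 WT) had 7 of 25 measured members higher and 1 lower, against 12.4% and 7.29% of all genes. Atf3 stood at 102 and 11.7 CPM (3.13 [2.17, 4.19]), from 41 and 12 UMIs that in both libraries came from at most 10 cells. With doublets kept the ratio was 1.78, with each cell weighted alike 1.13, and 38.1% of the WT UMIs were estimated as free RNA. Hspa8 stood at 912 and 498 CPM (0.87 [0.67, 1.07]). Dusp2 was lower, at 39.8 and 81.7 CPM (-1.04 [-1.91, -0.26]), and Btg1, an antiproliferative gene, was at 586 and 622 CPM (-0.08), a ratio that did not keep its sign over the alternatives. The median over the B-like members was 0.12, against 0.07 over all genes.

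Across lymphocytes and phagocytes, the HSP70 pair and the remaining chaperones did not move as a block. Hspa1a plus Hspa1b was at least 1.5-fold lower in 5 of 14 classes and at least 1.5-fold higher in 3, whereas the sum of the other 7 heat shock members was lower in 0 and higher in 1. The 5 include Treg-like cells, where the ratio of the pair was -1.38 but -0.35 without the 10 highest cells and near 0 (-0.02) with thinned cells. The 3 higher classes were cDC1-like, cDC2-like and Inhba phagocytes, of which 1, cDC1-like, remained with thinned cells. The sum of the other 7 is weighted to abundant genes, with Hspa8 at 1949 of 3196 CPM in knockout cDC1-like cells. By gene, Hsph1 was at least 1.5-fold higher in 8 of 13 classes and Dnaja1 in 4 of 14, and both were lower in 0. Hsp90aa1, Hspe1, Hspd1 and Dnajb1 were each lower in 1 class. In non-classical monocyte-like cells the pair stood at 407 and 787 CPM (-0.95 [-1.14, -0.76]) and the other 7 at 2340 and 1730 CPM (0.44 [0.33, 0.54]). In cDC1-like cells both sums were above 0, at 1.02 [0.91, 1.13] and 0.34 [0.31, 0.37]. The median of AP-1, EGR and NR4A members lay below that of heat shock members in 8 of 14 classes, and the medians had opposite signs in 4.

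**Figure D3:**
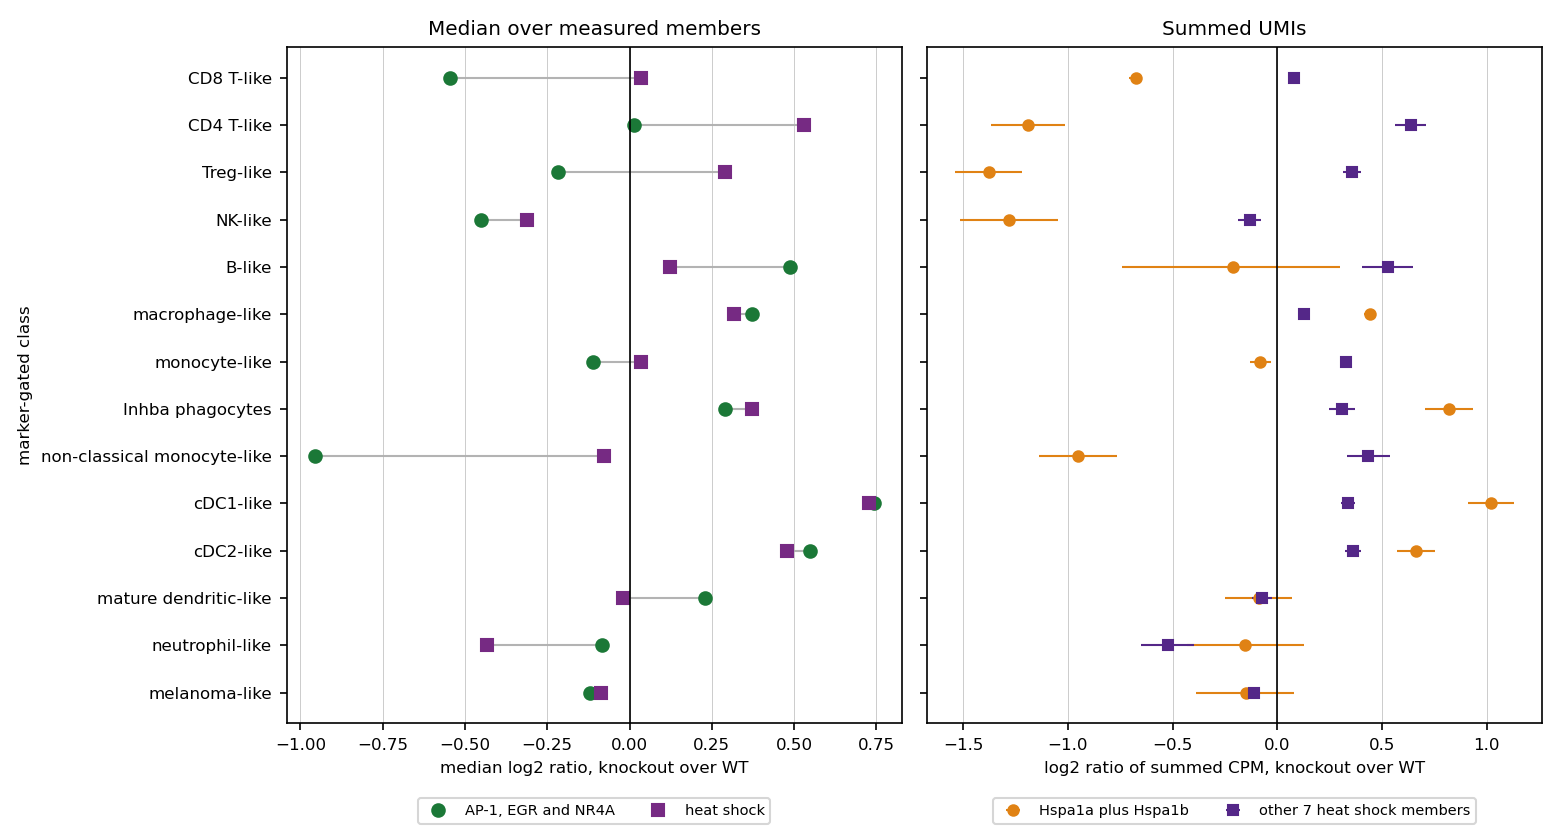
Left, the median log2 ratio of the AP-1, EGR and NR4A members (circles) and of the heat shock members (squares) in each class, and right, the log2 ratio of summed CPM of Hspa1a plus Hspa1b and of the other 7 heat shock members, with 95% counting intervals. In CD8 T-like cells the left points lie at -0.55 and 0.04, and the right points at -0.68 and 0.08.

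Unlike CD8 T-like cells, macrophage-like cells (1537 knockout and 2873 WT) had more higher than lower members. In them 8 of 39 measured members were at least 1.5-fold higher in the knockout library and 0 lower, against 6.56% and 6.02% of all genes. The 8 were Fosb, Fosl2, Egr2, Egr3, Nr4a1, Nr4a3, Dusp5 and Btg2, and the 3 AP-1 genes with the most UMIs in the WT library, Atf3, Junb and Jun, were within 1.5-fold. Of these 8, only Fosb was at least 1.5-fold lower in CD8 T-like cells, and Egr2 was higher in both classes.

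Among AP-1 members, Fosb stood at 19.8 and 7.77 CPM (1.35 [1.18, 1.52]) and Fosl2 at 51.1 and 34.0 CPM (0.59 [0.49, 0.68]). Fos (210 and 181 CPM, 0.21), Junb (376 and 281 CPM, 0.42), Jun (222 and 231 CPM, -0.05) and Atf3 (339 and 336 CPM, 0.02) lay closer to 0. Jun was thus at like levels in the macrophage-like cells of both libraries. Egr2, which macrophages also use as they mature, stood at 27.1 and 14.7 CPM (0.88 [0.74, 1.01]). Egr3 stood at 1.28 and 0.638 CPM (0.9996 [0.33, 1.67]), with 70.3% and 62.8% of its UMIs in 10 cells. Egr1 was at 17.2 and 17.6 CPM (-0.03). Nr4a1 stood at 24.2 and 15.1 CPM (0.69 [0.54, 0.83]) and Nr4a3 at 6.03 and 3.41 CPM (0.82 [0.53, 1.11]). Nr4a2 was at 10.1 and 8.54 CPM (0.24), so all 3 NR4A ratios were above 0 in this class.

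Of the feedback genes, Dusp5, which turns off ERK, stood at 19.99 and 11.6 CPM (0.78 [0.62, 0.94]), and Btg2, an antiproliferative gene, at 141 and 85.8 CPM (0.71 [0.65, 0.77]). Dusp2 leaned lower at 21.4 and 30.0 CPM (-0.49). The 4 NF-kB and cytokine feedback genes had a median of 0.01. None of the 9 heat shock members passed 1.5-fold, with log2 ratios from -0.26 in Hspd1 to 0.50 in Hspa1b. Hspa8 stood at 1488 and 1138 CPM (0.39). Hspa1a, with 287 and 218 CPM, had a like ratio of 0.39.

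The makeup of the macrophage-like class differed between libraries. Cells with Inhba-module genes made up 12.5% of knockout and 6.44% of WT cells of the class, cycling cells 10.7% and 19.2%, and cells with Arg1 25.6% and 20.7%. When the 5 parts of the class were weighted alike, 3 of the 8 genes stayed past 1.5-fold. They were Fosb (1.14), Egr3 (1.09) and Nr4a3 (0.73). Egr2 (0.54), Btg2 (0.48), Nr4a1 (0.46), Fosl2 (0.39) and Dusp5 (0.33) did not. Nr4a3 in turn was within 1.5-fold without the 10 highest cells (0.45), with thinned cells (0.50) and with each cell weighted alike (0.07). The median of AP-1, EGR and NR4A members was -0.05 in cells with Arg1 and -0.13 in cells with Inhba-module genes. It was 0.30 in cycling cells, 0.15 in cells with Lyve1 or Cbr2 and 0.17 in the rest. The 5 monocyte markers summed to 961 and 578 CPM in the class and the 5 mature dendritic markers to 12.0 and 4.38 CPM, with none at 0. Median mitochondrial shares were 3.43% and 2.87%. The part of these in the remaining differences was not tested.

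Of 41 other early response genes measured in macrophage-like cells, 8 were higher and 0 lower, led by Nfkbid (42.3 and 22.4 CPM, 0.92) and the kinase gene Sgk1 (46.8 and 25.5 CPM, 0.88). Of 16 genes of the receptor and NFAT response, 4 were higher, led by Xcl1 (3.14 and 1.23 CPM, 1.35) and Tnfrsf9 (21.5 and 10.5 CPM, 1.03). Xcl1 is a gene of T and NK cells, whose 6 T markers summed to 34.5 and 29.0 CPM and 6 NK markers to 4.93 and 2.57 CPM in this class. Cryab (3.00 and 9.70 CPM, -1.69) and Serpinh1 (1.48 and 4.06 CPM, -1.46) were the 2 lower genes of 24 other chaperones. The libraries held 126 knockout and 388 WT melanoma-like cells, and 5 and 16 fibroblast-like cells. The part of such cells in the ratios of Cryab and Serpinh1 was not tested. None of the 18 upstream factors passed 1.5-fold.

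Monocyte-like cells (1296 knockout and 603 WT) showed few differences. Of 38 measured members 2 were at least 1.5-fold higher and 0 lower, against 6.22% and 3.41% of all genes. Egr2 stood at 33.5 and 19.8 CPM (0.76 [0.49, 1.04]). Hsph1 stood at 53.3 and 34.9 CPM (0.61 [0.40, 0.82]), with 61.4% of its WT UMIs in 10 cells. Over the UMI total used for cell calling the ratios were 0.10 for Egr2 and 0.08 for Hsph1. The AP-1 genes leaned slightly lower, with Fos at 244 and 304 CPM (-0.32), Jun at 344 and 371 CPM (-0.11) and a family median of -0.13. Hspa8 was at 1756 and 1209 CPM (0.54), within 1.5-fold.

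Of 40 other early response genes in monocyte-like cells, Cd69, a marker of recent activation, was higher (94.96 and 53.5 CPM, 0.83), and Ier5l (4.40 and 9.17 CPM, -1.06) and Ppp1r15a (31.5 and 47.3 CPM, -0.59) were lower. Of 23 other chaperone genes, Hspa4l was higher (22.8 and 12.7 CPM, 0.85), and Cryab (2.42 and 7.96 CPM, -1.72) and Hspb1, a small heat shock protein gene (2.79 and 35.9 CPM, -3.69), were lower. The part of melanoma-like cells (126 and 388) and fibroblast-like cells (5 and 16) in the ratios of Cryab and Hspb1 was not tested. Of 13 receptor and NFAT response genes 4 were higher, led by Tox (9.25 and 4.86 CPM, 0.93) and Irf4 (8.88 and 4.72 CPM, 0.91). Of 18 upstream factors 0 passed 1.5-fold.

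Phagocytes named for their Inhba-module genes (362 knockout and 112 WT) had 7 of 38 measured members higher and 0 lower, against 10.7% and 7.15% of all genes. Hspa1b stood at 402 and 162 CPM (1.31 [1.11, 1.52]) and Hsph1 at 86.2 and 45.1 CPM (0.93 [0.55, 1.34]), with 86.2% of the WT UMIs of Hsph1 in 10 cells. With each cell weighted alike the ratio of Hsph1 turned to -0.73. Jund (273 and 341 CPM, -0.32) and Nfkbia (1205 and 1378 CPM, -0.19) lay below 0. Without the 10 highest cells of each library Nfkbia was at 0.04.

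The cDC1-like class (287 knockout and 188 WT cells) had the highest count of members past the fold. Of 38 measured members 24 were at least 1.5-fold higher in the knockout library and 1 lower, against 11.0% and 4.58% of all genes. The 24 came from each sub-list, with 3 of 7 AP-1, 2 of 3 EGR, 2 of 3 NR4A, 8 of 12 early response, 4 of 4 NF-kB and cytokine feedback and 5 of 9 heat shock members.

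In cDC1-like cells Nr4a3 had the largest ratio, from 225 knockout and 32 WT UMIs, at 36.8 and 7.25 CPM (2.34 [1.80, 2.92]), with 73.8% and 87.5% of the UMIs in 10 cells. Dusp1 was spread more widely, at 61.3 and 16.1 CPM (1.93 [1.56, 2.32]). Both phosphatase genes Dusp1 and Dusp5 (61.1 and 28.6 CPM, 1.10) were thus higher in the knockout library. Fosb (14.4 and 4.08 CPM, 1.82), Fosl2 (39.9 and 12.2 CPM, 1.70) and Egr2 (17.3 and 5.67 CPM, 1.61) were higher among transcription factors. Jun (94.6 and 66.8 CPM, 0.50) and Fos (63.9 and 54.4 CPM, 0.23) were within 1.5-fold. Tnfaip3, which encodes the NF-kB inhibitor A20, stood at 70.8 and 30.8 CPM (1.20), and Zfp36, which encodes an RNA-binding protein that destabilises cytokine messages, at 145 and 65.0 CPM (1.16). Among chaperones Hsph1 stood at 78.5 and 33.1 CPM (1.25), and Hspe1 at 307 and 335 CPM (-0.12). Egr3 was the lower member, at 13.6 and 27.6 CPM (-1.03 [-1.45, -0.61], or -0.55 over the UMI total used for cell calling), and Ier5 stood at 150 and 176 CPM (-0.23).

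The count in cDC1-like cells stayed between 18 and 24 over the alternatives tried. The class's own 4 markers summed to 3475 and 4290 CPM, the mature dendritic markers to 43.8 and 19.5 CPM and the C1q genes to 148 and 98.8 CPM. The depth of the cells was similar, with medians of 19771 and 22318 UMIs, and mitochondrial shares had medians of 3.04% and 3.10%. The part of these markers in the result was not tested.

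In cDC2-like cells (342 knockout and 155 WT) 11 of 37 measured members were higher and 0 lower, against 7.35% and 3.31% of all genes. Fosb stood at 44.2 and 14.2 CPM (1.64 [1.17, 2.14]) and Hsph1 at 83.4 and 35.7 CPM (1.22 [0.92, 1.54]). Both were also higher in cDC1-like cells. The members furthest below 0 were Nfkbiz, an NF-kB cofactor gene (115 and 147 CPM, -0.35), and Nr4a3 (86.3 and 108 CPM, -0.33). Neither kept its sign without the 10 highest cells of each library, at 0.02 and 0.37, and 70.7% of the WT UMIs of Nr4a3 lay in 10 cells. Mature dendritic-like cells (283 and 167) had 3 of 33 members higher and 1 lower, against 8.37% and 4.06%. Ier2 stood at 30.7 and 17.0 CPM (0.85), and Zfp36l1, a relative of Zfp36, at 632 and 475 CPM (0.41). Jun was the lower member, at 112 and 193 CPM (-0.78, or -0.50 without the 10 highest cells), and Nr4a2 stood at 82.3 and 120 CPM (-0.55). Nr4a3 was at its highest level of any class here, at 842 and 695 CPM (0.28).

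Unlike cDC1-like cells, non-classical monocyte-like cells (122 knockout and 71 WT) had more lower than higher members. In them 15 of 33 measured members were at least 1.5-fold lower and 2 higher, against 5.16% and 10.6% of all genes. Egr1 stood at 20.7 and 117 CPM (-2.49 [-3.25, -1.79]), from 22 and 76 UMIs. Fos stood at 85.8 and 232 CPM (-1.44 [-1.83, -1.05], or -0.36 over the UMI total used for cell calling), and Jun at 160 and 391 CPM (-1.29 [-1.57, -0.9994]). The 8 measured AP-1, EGR and NR4A members were all below 0, with a median of -0.96. Hsph1 (57.5 and 23.1 CPM, 1.32 [0.49, 2.24]) and Dnaja1 (251 and 128 CPM, 0.97 [0.61, 1.35]) were the 2 higher members. Both were also higher in cDC1-like cells. The sum of the 7 heat shock members other than the HSP70 pair was above 0 in both classes, at 0.44 here and 0.34 in cDC1-like cells. The count of lower members stayed between 10 and 17 over the alternatives tried. In this class the C1q genes summed to 72.6 and 157 CPM and the neutrophil markers to 207 and 291 CPM, both higher in the WT library, and their part was not tested.

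**Figure D4:**
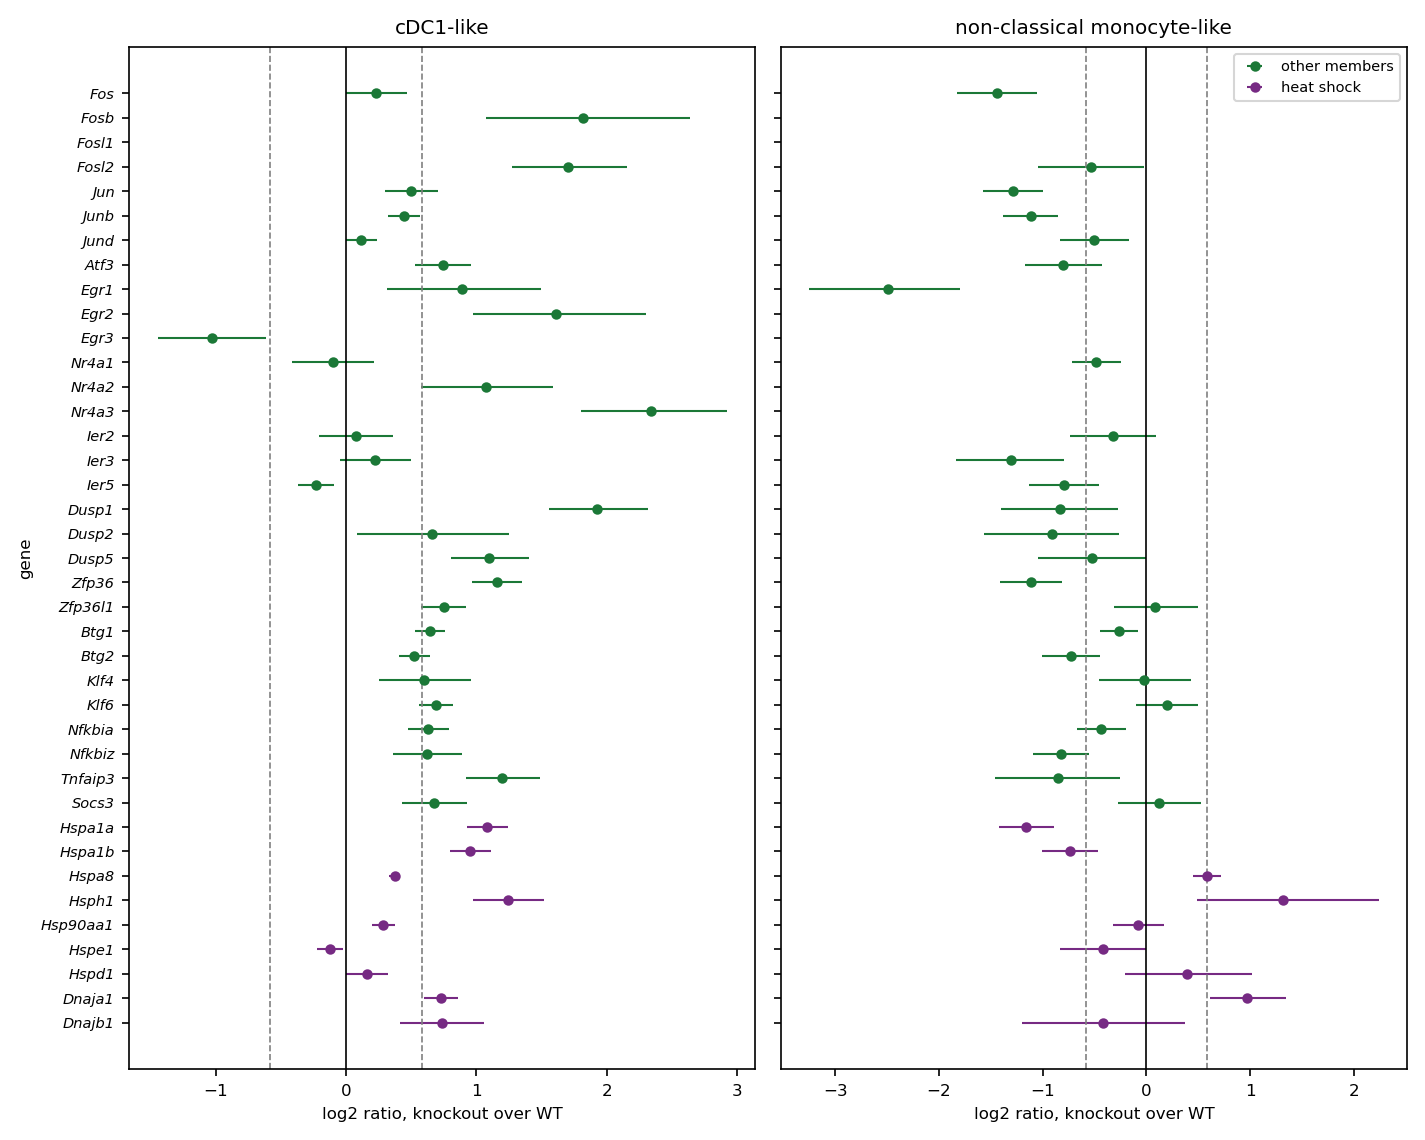
Log2 ratio, knockout over WT, of each measured member (vertical axis) in cDC1-like cells (left) and non-classical monocyte-like cells (right), with 95% counting intervals, heat shock members in purple and dashed lines at 1.5-fold. On the left most points lie right of 0, up to 2.34 in Nr4a3, and on the right most lie left of 0, down to -2.49 in Egr1, while Hsph1 is right of 0 in both.

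Neutrophil-like cells (210 knockout and 100 WT) held the highest summed AP-1 level of the 14 classes in both libraries, at 6792 and 8328 CPM. Of 33 measured members 1 was higher and 6 lower, against 13.5% and 9.21% of all genes. Zfp36l1 (361 and 217 CPM, 0.74, or 0.51 under stricter gates) was the higher member, and Fosl2 (310 and 239 CPM, 0.38) lay above 0 within 1.5-fold. Hspd1 (17.6 and 63.3 CPM, -1.85), from 19 and 31 UMIs, and Hsp90aa1 (412 and 674 CPM, -0.71) were among the lower ones. Without the 10 highest cells of each library the ratio of Hsp90aa1 turned to 0.31.

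Melanoma-like cells, which the sort should have removed, numbered 126 and 388 and differed in depth, with medians of 6222 and 55914 UMIs. Of 36 measured members 2 were higher and 3 lower, against 7.34% and 7.36% of all genes. Fosl2 (20.7 and 10.3 CPM, 1.01, or 0.55 without the 10 highest cells) and Atf3 (28.2 and 19.2 CPM, 0.55) lay above 0, and Jund (106 and 176 CPM, -0.72) and Klf6 (67.0 and 103 CPM, -0.62) below. With thinned cells these 2 were within 1.5-fold, at -0.40 and -0.26. Hspa1a, the other higher member, stood at 7.42 and 4.83 CPM. The free RNA estimate exceeded its UMIs in both libraries (130% and 180% of them), so it was not measured above background. For Hspa1b the estimate was 41.1% and 23.4%.

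Some members leaned to 1 direction over many classes, while others, such as Fosb, differed in direction between classes. All were chosen after their values were seen. Of the pairs of any measured gene and a class, 8.38% were at least 1.5-fold higher and 5.86% lower. Counts of classes above or below 0 have no such share over all genes beside them. Egr2 was above 0 in 7 of 7 classes in which it was measured and at least 1.5-fold higher in 5, with log2 ratios from 0.23 to 1.61. Hsph1 was at least 1.5-fold higher in 8 of 13 classes and lower in 0. Under stricter gates its ratio in monocyte-like cells was 0.29, and in Inhba phagocytes its sign turned with each cell weighted alike. Dnaja1 was above 0 in 12 of 14 classes. Jun was at least 1.5-fold lower in 6 of 14 classes (CD4 T-like, CD8 T-like, NK-like, Treg-like, mature dendritic-like and non-classical monocyte-like) and higher in 1 (B-like). In B-like cells its ratio rested on 26 and 40 UMIs (0.73 [-0.04, 1.48]). Jund and Nfkbia each lay below 0 in 11 of 14 classes, with Jund at least 1.5-fold lower in 2 and Nfkbia in 0. Nfkbia was at least 1.5-fold higher in 1, the cDC1-like class. Fosb was higher in 4 of 8 classes, all phagocytes or dendritic cells, and lower in 1, CD8 T-like cells.

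**Figure D5:**
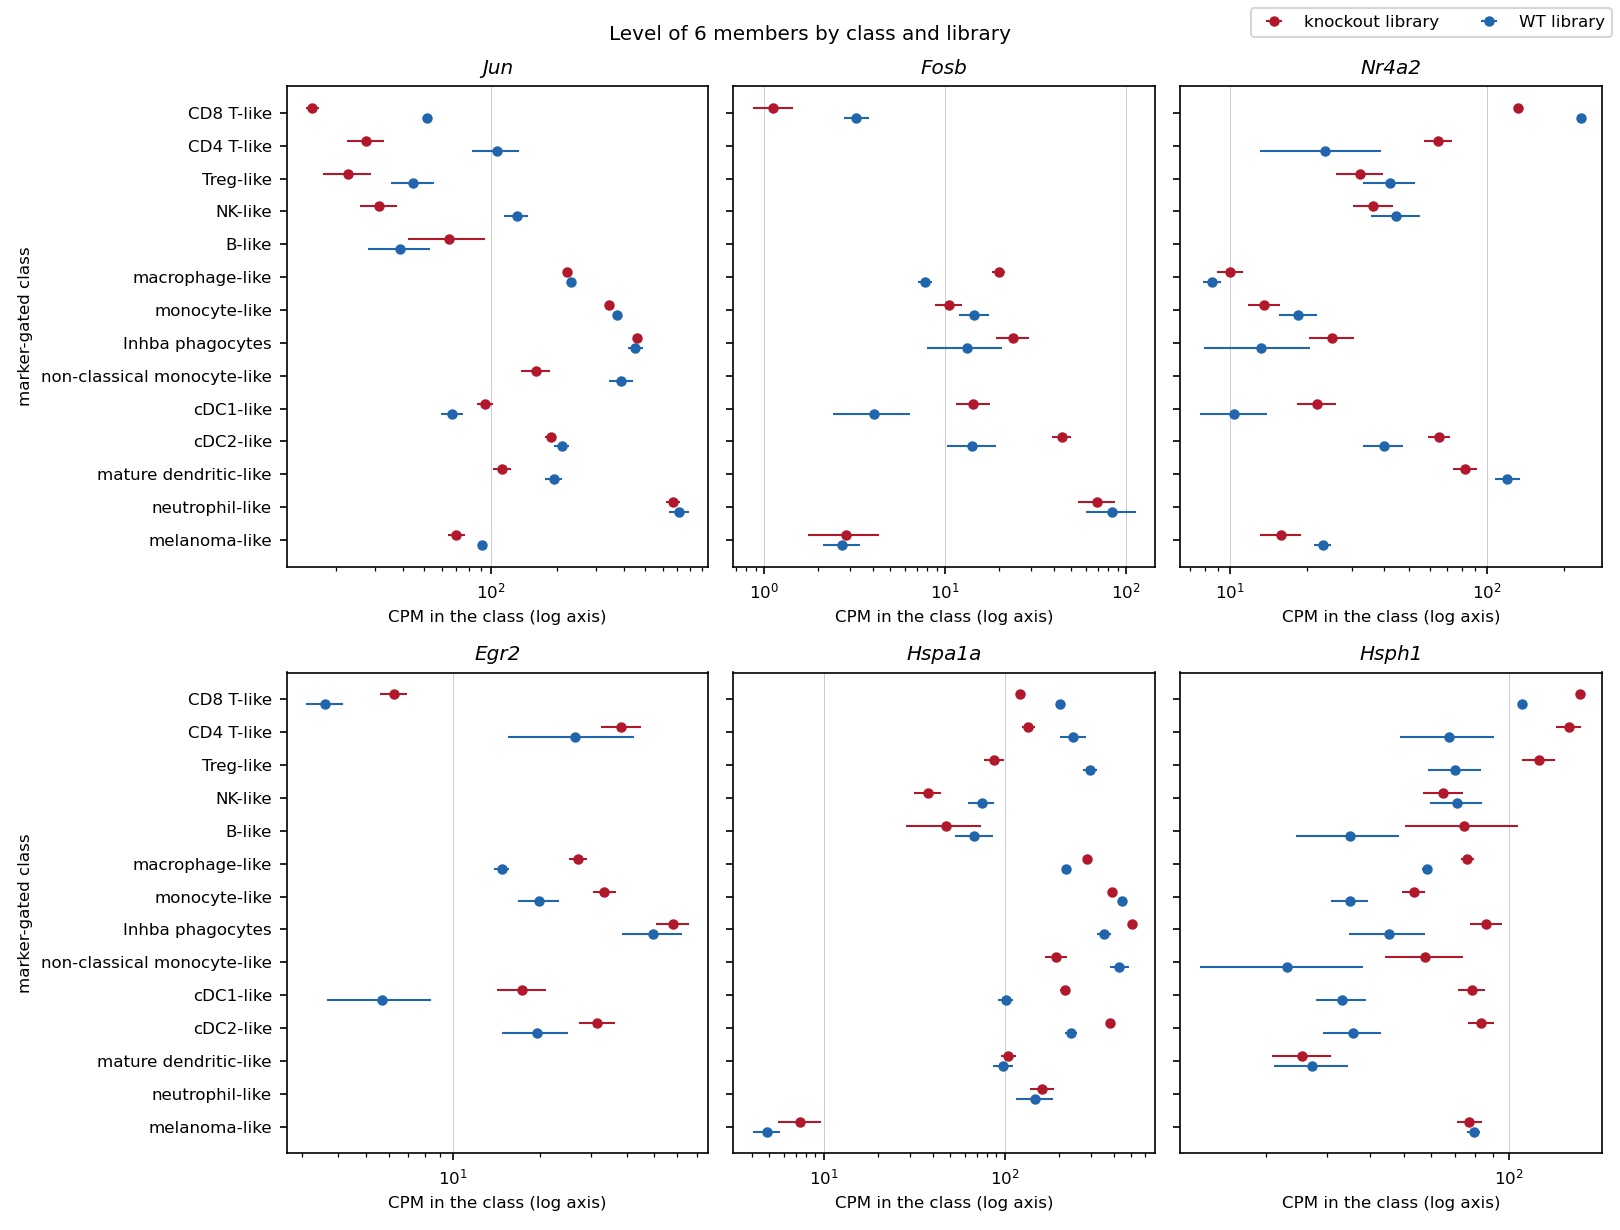
CPM (log axis) of 6 members in each class with at least 50 UMIs, in the knockout library (red) and the WT library (blue), with exact 95% Poisson intervals. Jun is lower in the knockout library in CD8 T-like (15.6 and 51.6 CPM) and NK-like cells (31.1 and 131 CPM) but not in macrophage-like cells (222 and 231 CPM), and Egr2 is higher in the knockout library in each class shown.

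The levels of single members ran over a wide range between classes within each library. The lowest Jun level was 15.6 CPM in the knockout library (CD8 T-like cells) and 38.9 CPM in the WT library (B-like cells), and highest in neutrophil-like cells (671 and 711 CPM). Fos was lowest in CD8 T-like cells (5.23 and 8.08 CPM) and highest in neutrophil-like cells (1456 and 1841 CPM, -0.34 [-0.46, -0.22]). Nr4a2 was highest in CD8 T-like cells (132 and 232 CPM) and lowest in macrophage-like cells (10.1 and 8.54 CPM). Egr2 was highest in Inhba phagocytes (57.9 and 49.3 CPM) and lowest, where measured, in CD8 T-like cells (6.23 and 3.59 CPM). For these 4 genes the difference between classes exceeded that between libraries.

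Within the CD8 T-like class, cells with more AP-1 RNA tended to have slightly more heat shock RNA. Spearman's rho between the summed AP-1 and summed heat shock levels per cell was 0.25 over 2399 knockout cells and 0.26 over 1836 WT cells. Both sums come from the same library and depend on its depth, with a rho between heat shock level and UMIs per cell of 0.48 and 0.45. In macrophage-like cells the rho of AP-1 with heat shock was 0.11 over 1501 and 0.08 over 2713 cells. RNA of the HSP70 pair was unevenly spread over CD8 T-like cells, with 67.4% of its knockout UMIs and 48.0% of its WT UMIs in the 10% of cells that had the most. The corresponding shares for AP-1 were 40.2% and 36.5%.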

How the data were processed

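Each library's deposited values were counts of UMIs per gene and barcode, made by the authors with Cell Ranger 7.2.0 per the file headers, on the genome build mm10 per the submitters' processing notes. From these, cells were called by UMI total and by a Monte Carlo test against free RNA, cells with under 250 genes or over 10% mitochondrial UMIs were removed, and Scrublet (scanpy 1.11.5) marked 3.09% and 1.68% of cells as doublets, which were left out. Marker gates gave the classes. UMIs were added up for each class of each library, and log2 ratios of CPM were computed with exact conditional 95% intervals (Python 3.11.15, numpy 2.4.6, scipy 1.17.1, pandas 2.3.3). The libraries held 202946827 and 235652476 UMIs. Of these steps, the ratio intervals were tested on counts simulated for the CD8 T-like, macrophage-like and monocyte-like classes. The simulated counts followed the same counting model as the intervals, with no spread between cells or tumours. Cell calling, doublet marking and the gates were not tested in this way. Members past 1.5-fold were named in CD8 T-like, macrophage-like and monocyte-like cells, and in other classes up to 2 each way by the interval bound nearest 0, and further genes were followed after their values were seen. The members and lists were chosen with earlier results of these data known.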

Additional observations from a re-analysis of the deposited data

Results flagged for a closer look

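Fosb moved in opposite directions in the CD8 T-like and macrophage-like classes, and was singled out for that reason. Its log2 ratio of knockout over WT was -1.53 in CD8 T-like cells (1.13 and 3.25 CPM) and 1.35 in macrophage-like cells (19.8 and 7.77 CPM). There was 1 library in each group, so the difference was not tested.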

How the results depend on the processing

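No paired analysis was possible because each group held 1 library. Under the 13 alternatives, some counts and medians moved. In CD8 T-like cells 2 members were higher with doublets kept, with each cell weighted alike or without the 10 highest cells, and 3 after thinning. The median of AP-1, EGR and NR4A members there was -0.39 with doublets kept and -0.82 with free RNA subtracted. The heat shock median was 0.0060 above the UMI threshold, 0.017 under stricter gates, 0.0085 thinned, 0.010 weighted alike and -0.014 centred. In macrophage-like cells 1 member was lower with at most 5% mitochondrial UMIs or without the 10 highest cells, and 5 were higher thinned or weighted alike and 3 with sub-gates weighted alike. The AP-1, EGR and NR4A median was then 0.20, 0.15 and 0.10, and the heat shock median 0.14 under stricter gates, 0.17 without the 10 highest cells and 0.19 with sub-gates weighted alike. In monocyte-like cells 1 member was lower above the threshold, with at most 5% mitochondrial UMIs, with a minimum of 10 UMIs or weighted alike, and 3 under stricter gates. There 1 was higher above the threshold, under stricter gates, centred or with sub-gates weighted alike. The first median was 0.16 above the threshold, -0.19 thinned, -0.20 weighted alike and -0.19 centred, and the heat shock median 0.15 above the threshold and 0.17 without the 10 highest cells. NK-like lower members numbered 2 above the threshold, 5 with a minimum of 200 UMIs and 3 without the 10 highest cells, and CD4 T-like ones 4 without those cells. The ratio turned for Fos to 0.91 in CD4 T-like cells and for Hsp90aa1 to 0.31 in neutrophil-like cells without the 10 highest cells, for Fos to 0.19 in CD8 T-like cells with doublets kept, for Hsph1 to -0.73 in Inhba phagocytes weighted alike, and for Hspa1b to 0.29 thinned and 0.31 weighted alike in Treg-like cells. Members within 1.5-fold turned too: without the 10 highest cells Nr4a3 (0.37) and Nfkbiz (0.02) in cDC2-like cells and Nfkbia in Inhba phagocytes (0.04, and 0.02 weighted alike), and Btg1 in B-like cells (1.90 above the threshold, 0.06 with doublets kept). The sums of heat shock genes were recomputed under 9 alternatives chosen after seeing the data. Hspa1a plus Hspa1b was lower in 4 to 6 of 14 classes, though not the same ones throughout, and higher in 1 thinned or weighted alike. The other 7 were lower in 1 and higher in 2 above the threshold, and higher in 0 under stricter gates, thinned or weighted alike. The cause was not tested. Leaving out 10 cells takes a larger share of small classes. Depth limits genes near 50 UMIs, and 1 library per group limits every comparison.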
